A study of Mus musculus with 14 samples.

Results

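The genes described here encode the matrix metalloproteinases (MMPs), the ADAM and ADAMTS proteases and the tissue inhibitors of metalloproteinases (TIMPs), in mammary tumors of mice with or without deletion of *Lats1* or *Lats2*. They were chosen by symbol alone, as the genes named Mmp, Adam, Adamts or Timp followed by a number that stand in both deposited count tables. This gave 61 of the 17232 genes shared by the tables, of which 19 are MMPs, 19 ADAMs, 19 ADAMTSs and 4 TIMPs. *Adam3* and *Adam1b* stand in the *Lats2* table only and were left out.

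RNA was sequenced from 14 tumors in 2 experiments of 7 libraries each, which the labels call batches *Lats2* and *Lats1*. All mice carried the MMTV-PyMT transgene, which expresses the polyomavirus middle T antigen in mammary epithelium. In the first experiment 4 *Lats2*-CKO PyMT tumors (exon 5 of *Lats2* deleted by a mammary-specific Cre) stood beside 3 WT-PyMT tumors of nondeleted littermates, and in the second 4 *Lats1*-CKO PyMT tumors (exon 4 of *Lats1* deleted by MMTV-Cre) stood beside 3 other WT-PyMT littermate tumors. The labels give 6 adenomas (WT 14, WT 2, *Lats2*-CKO 7, WT 20, WT 22 and *Lats1*-CKO 27), 7 carcinomas (WT 1, *Lats2*-CKO 1, 8 and 16, WT 17, *Lats1*-CKO 18 and 14) and 1 adenosquamous carcinoma (*Lats1*-CKO 21). The 7 tumors of the *Lats2* experiment came from separate mice, and those of the *Lats1* experiment from mice 3 months old. The sex of the mice and the number of mice behind the *Lats1* experiment are not given in the sources used here, so the p-values there measure the spread between these libraries. The Cre acts in mammary epithelium, whereas the RNA came from whole tumor and includes stroma, immune cells and vessels that keep both genes. In such bulk samples fewer cells of a type and less RNA per cell cannot be told apart.

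MMPs are zinc proteases that are made as inactive precursors and cut collagens, gelatin, elastin and other matrix proteins, either after secretion or while anchored in the cell membrane. ADAMs are membrane proteins, several of which shed ligands and receptors such as EGF-family growth factors and TNF from the cell surface, while ADAMTSs are secreted and process proteoglycans and procollagens. TIMPs block the active site of MMPs and of some ADAMs and ADAMTSs. In mammary tumors stromal fibroblasts, macrophages and neutrophils are known as major sources of several MMPs beside the tumor cells.

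Of the MMPs, 7 (*Mmp13*, *Mmp12*, *Mmp3*, *Mmp10*, *Mmp8*, *Mmp27* and *Mmp7*, in this order) lie in 1 cluster on chromosome 9 of GRCm38, from 7272514 to 7699585, a stretch of 427.1 kb. Since several results below turn on these neighbors, their promoters were read from RefSeq (GRCm38.p6, 250 bases before to 50 after each start site) and searched for the AP-1 motif TGANTCA, which reads the same on both strands. It was found in 5 of the 14 MMP genes that have a promoter there, all 5 in the cluster, and in 1 other gene of the 38 members with a promoter, *Adam19*. Of all 27025 genes given there 8.97% have a promoter with the motif, and of their 32851 promoters 7.81% hold it. A match is a description of letters and no evidence of binding. The stretches around the 5 matches in the cluster, on the plus strand with the motif in capitals, are shown because several of these genes differ by many times between libraries below.
Mmp13 (chr9:7272454-7272510): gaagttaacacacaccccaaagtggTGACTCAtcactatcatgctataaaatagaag
Mmp12 (chr9:7347305-7347361): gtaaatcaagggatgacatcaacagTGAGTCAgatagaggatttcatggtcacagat
Mmp3 (chr9:7445751-7445807): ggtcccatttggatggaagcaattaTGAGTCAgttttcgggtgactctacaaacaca
Mmp10 (chr9:7502254-7502310): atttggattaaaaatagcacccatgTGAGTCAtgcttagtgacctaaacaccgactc
Mmp7 (chr9:7692002-7692058): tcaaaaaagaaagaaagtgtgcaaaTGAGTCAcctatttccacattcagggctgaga
The motif began 35 bases before the start site in *Mmp13*, 44 in *Mmp12*, 46 in *Mmp3* and 63 in both *Mmp10* and *Mmp7*. For *Mmp12* and *Mmp7*, which have more than 1 promoter in the table, only 1 held it.

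Libraries held 18593864 to 31909282 counts, of which the 61 genes took 0.125% to 0.276%. *Lats1* stood at 32.9 to 38.3 CPM (counts scaled to library size with TMM within an experiment) in *Lats1*-CKO and at 108 to 128 in its WT-PyMT tumors. *Lats2* stood at 8.26, 10.6 and 15.9 CPM in *Lats2*-CKO 7, 8 and 16 and at 23.0 to 53.3 in WT-PyMT, but at 32.5 in the remaining tumor, which is therefore called the library labelled *Lats2*-CKO 1. Several libraries stood apart in markers of other cells, in sums over a marker list: WT 14 (summed T and NK cell markers 2098 CPM and B cell markers 1680, against at most 68.7 and 148 in the other *Lats2* libraries), WT 22 (468 and 498), *Lats2*-CKO 7 (skeletal muscle markers 2961) and *Lats1*-CKO 21 (squamous markers 504 CPM with all 10 detected, against at most 43.9 elsewhere, skeletal muscle markers 990 and myoepithelial markers 1651). Summed luminal epithelial markers were 1042 CPM in WT 14 and 2808 to 4827 in the other 13 libraries, as a mean 6.52 against 7.83 to 8.67 log2 CPM.

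Compared per length, as CPM per kb of exon, the most abundant member was *Timp2* (median 55.7 over the 14 libraries), followed by the shedding protease *Adam10* (51.0), the membrane-type *Mmp15* (37.7), *Adam9* (29.7) and the gelatinase *Mmp2* (23.4). *Adam17*, which releases TNF and EGF-receptor ligands (19.4), *Timp3* (18.7), the membrane-type *Mmp14* (13.9), *Adam15* (13.01) and *Timp1* (12.9) came next. These ranges overlap between neighbors in the order. At the other end 14 members lay under a median of 0.1 CPM per kb and 18 under 1 CPM, where few counts limit what can be seen. *Adam1a*, *Mmp19*, *Timp3* and *Adam15* share 63.7%, 28.3%, 21.3% and 20.6% of their exon bases with other genes, whose reads an unstranded count may mix.

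**Figure D1:**
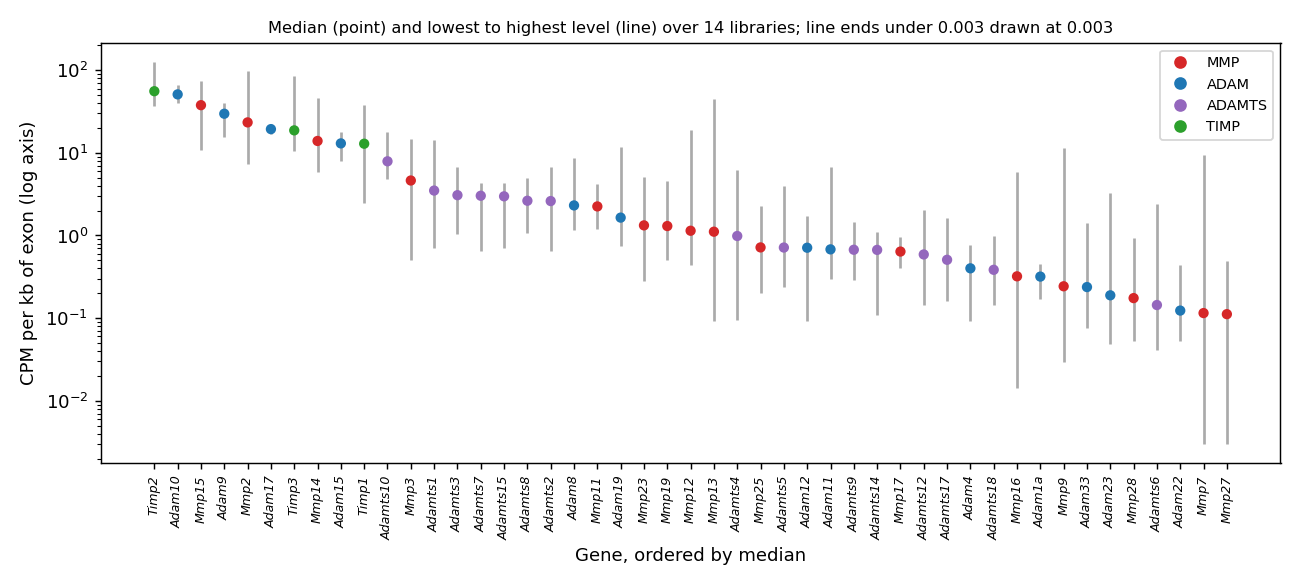
Level of the members with a median of at least 0.1 CPM per kb of exon over 14 libraries (log axis), with points for the median, colored by family, and lines from the lowest to the highest library. *Timp2* and *Adam10* lead, and the lines of *Mmp13*, *Mmp7*, *Mmp9* and *Mmp16* are the longest.

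The sheddases varied little. *Adam10* ranged from 199 to 327 CPM and *Adam17* from 121 to 158 CPM over all 14 libraries. The chromosome 9 genes varied far more: *Mmp13* ran from 0.249 to 121 CPM and *Mmp12* from 3.15 to 136 CPM. The highest of the 14 values fell in WT 14 for 15 members, in *Lats1*-CKO 21 for 12 and in the library labelled *Lats2*-CKO 1 for 10, all 3 of them libraries that stand apart in the check above. Such a count over all genes was not made. CPM were scaled separately in the experiments, so these ranges hold differences between experiments too.

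**Figure D2:**
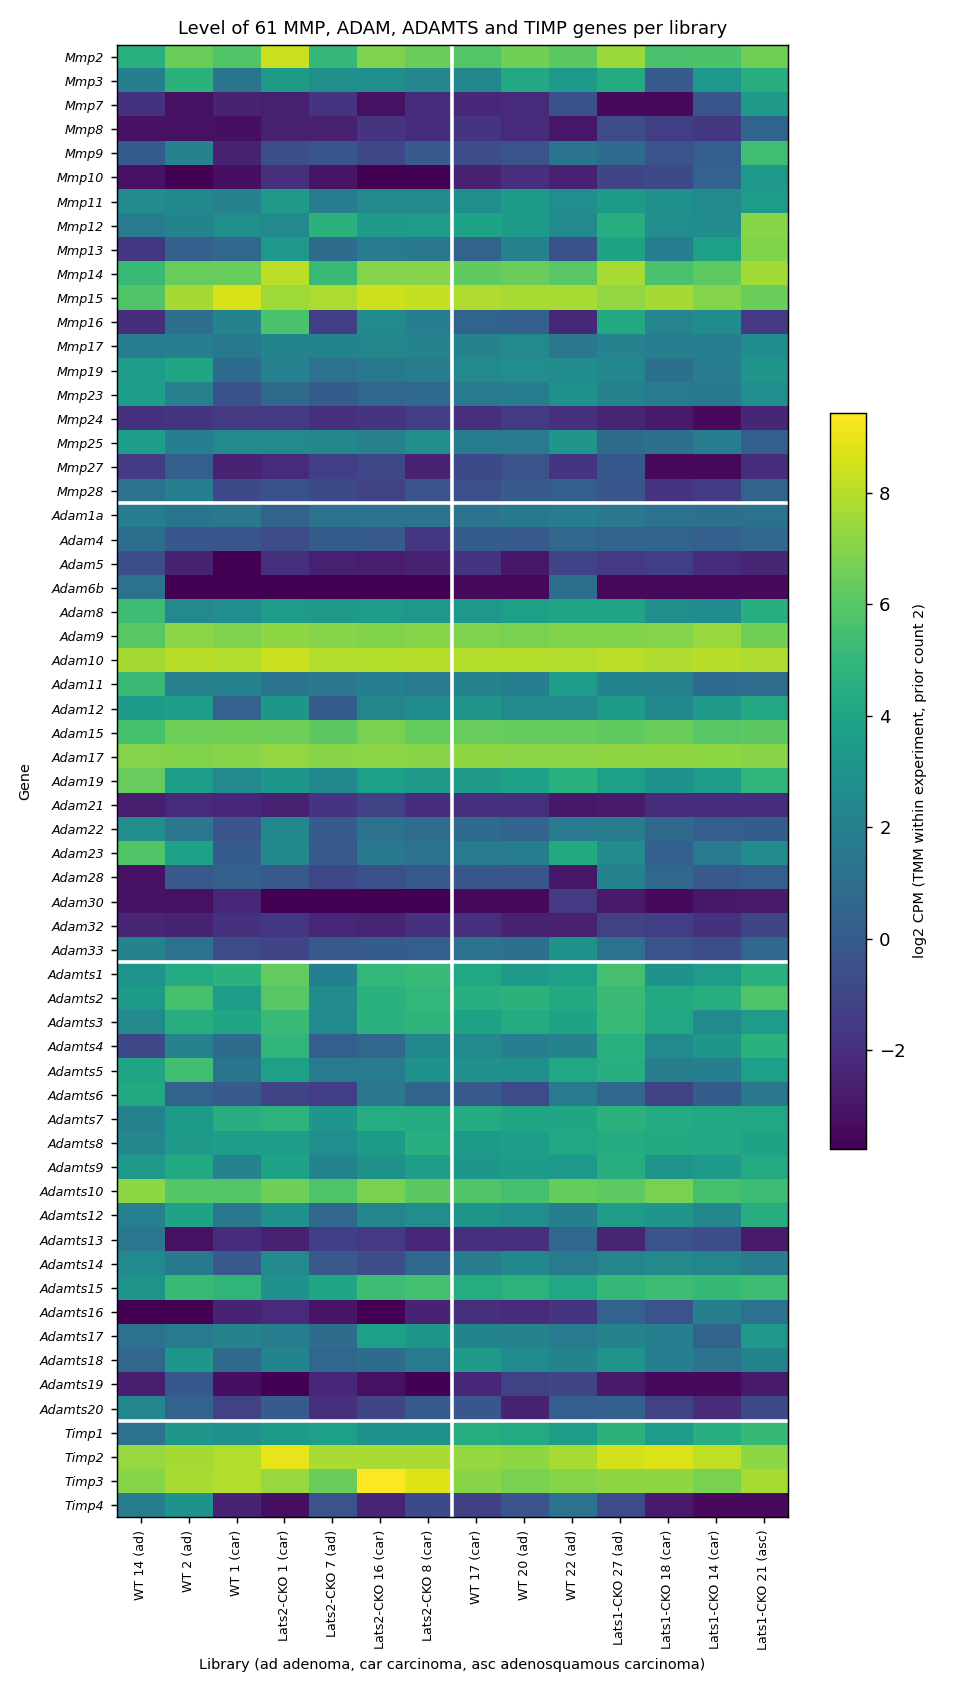
log2 CPM (color) of the 61 genes (rows, by family) in the 14 libraries (columns, the *Lats2* experiment left of the white line). *Adam10* and *Adam17* are even across the columns, while *Mmp12* and *Mmp13* stand out in *Lats1*-CKO 21 and *Adam11* and *Adam23* in WT 14.

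The first comparison asked how these genes differ in tumors with deleted *Lats2* from those of their littermates. Collagenase genes were higher and several ADAM genes lower in *Lats2*-CKO, but no member passed the test: edgeR called 0 of 61 at an adjusted p under 0.05, as it did 0% of all 17702 genes, and DESeq2 called 0 of the 56 members it tested beside 0.817% of all genes. At an unadjusted p under 0.05 in edgeR, 3 members were higher (1.2% of all genes were) and 6 lower (5.91%). The *Lats2*-CKO and WT-PyMT values did not overlap for 4 members that were higher (1.43% of all genes) and 3 that were lower (2.26%). The median log2 fold change was 0.04 over the members and -0.00 over all genes. By family, the MMPs had a median of 0.26 with 12 of 19 positive, the ADAMs -0.59 with 7 of 19 positive, the ADAMTSs -0.15 with 9 of 19 and the TIMPs 0.55 with 3 of 4. *Adam6b* and *Adam30* had no count in any *Lats2*-CKO library, and with them at the bound that 3 counts over the group allow, the members' median was again 0.04.

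Among the collagenases, which cut fibrillar collagen, *Mmp13* stood at 0.249, 1.12 and 1.51 CPM in WT 14, WT 2 and WT 1 and at 9.67, 1.80, 3.14 and 2.81 CPM in *Lats2*-CKO 1, 7, 16 and 8. All *Lats2*-CKO values lay above all WT-PyMT values, the lowest by a small step. The log2 fold change was 2.17 (standard error 0.83, adjusted p = 0.688 in edgeR), and without the library labelled *Lats2*-CKO 1 it was 1.42. *Mmp8*, the neutrophil collagenase, also did not overlap, but on 3 counts in the 3 WT-PyMT libraries and 16 in the 4 *Lats2*-CKO libraries. *Mmp12*, the macrophage elastase, had 3.15, 4.51 and 6.73 CPM in WT-PyMT and 5.57, 26.3, 9.79 and 11.1 in *Lats2*-CKO 1, 7, 16 and 8. Only the library labelled *Lats2*-CKO 1 fell among the WT-PyMT values, and the log2 fold change was 1.46 (standard error 0.58, adjusted p = 0.688 in edgeR). Without *Lats2*-CKO 7 it was 0.85. Summed macrophage markers (10 of 10 detected in every library) were 482 to 926 CPM in WT-PyMT and 741 to 1292 in *Lats2*-CKO, with *Lats2*-CKO 7 and 16 highest. With the macrophage mean as a covariate the *Mmp12* log2 fold change was 1.34, but 0 members then had an unadjusted p under 0.05 in the higher direction.

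The gelatinase *Mmp2* and its membrane-bound activator *Mmp14* were highest by far in the library labelled *Lats2*-CKO 1. *Mmp2* stood at 24.5, 88.7 and 57.4 CPM in WT 14, 2 and 1 and at 334, 32.9, 117 and 87.8 in *Lats2*-CKO 1, 7, 16 and 8, and *Mmp14* at 34.8, 83.5 and 82.5 and at 278, 36.6, 125 and 132. Both groups overlapped, with WT 14 and *Lats2*-CKO 7 low in both genes. The log2 fold changes were 1.33 (standard error 0.79) for *Mmp2* and 1.09 (0.64) for *Mmp14*, with adjusted p of 0.717 and 0.715 in edgeR, 0.48 and 0.55 without the library labelled *Lats2*-CKO 1, and 0.48 and 0.25 with histology as a covariate. The same library was the highest of its experiment in *Mmp16*, another membrane-type MMP (51.1 CPM against at most 5.48 in the other 6), in the proteoglycanases *Adamts4* (29.9 against at most 5.21) and *Adamts1* (76.6 against at most 35.7), and in *Timp2* (484 against at most 242). It was above every other library of the experiment in 14 of the 40 members that reached 1 CPM there, and over 2 times above in 7 of them. This was not particular to it, since WT 14 was highest in 15 of 45 members and over 2 times above in 9. The same was not counted over all genes. Summed fibroblast markers of the library labelled *Lats2*-CKO 1 were 1757 CPM, inside the range of 479 to 3498 of the other 6 libraries. *Mmp16* was chosen for naming after its values were seen.

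The members that were lower in *Lats2*-CKO included several that were highest in WT 14. *Adam11* and *Adam23*, catalytically inactive ADAMs best known from the nervous system, stood at 38.1 and 57.9 CPM in WT 14. In WT 2 and WT 1 *Adam11* was at 3.94 and 4.02 CPM, just above the 2.39 to 3.67 of *Lats2*-CKO, and *Adam23* at 13.5 and 0.996 CPM, around the 0.877 to 5.10 of *Lats2*-CKO. The log2 fold changes of -2.36 (standard error 0.83) and -3.12 (1.15), both at an adjusted p of 0.688 in edgeR, were -0.41 and -1.39 without WT 14. *Adam19* (83.2 CPM), *Adam8* (39.9) and *Adamts6* (18.6) were also highest of all libraries in WT 14, the library with the most lymphocyte and the fewest luminal markers, and the part of those cells was not tested. *Adam6b*, which lies beside the immunoglobulin heavy chain genes on chromosome 12, had 51 counts in WT 14 and 46 in WT 22 and none in the other 12 libraries, and these are the libraries with the highest B cell markers. *Mmp28*, an MMP of epithelia, was at 2.20, 3.61 and 0.481 CPM in WT-PyMT and 0.378 to 0.701 in *Lats2*-CKO, or -1.89 ± 0.68 on the log2 scale (standard error, adjusted p = 0.688 in edgeR). Only the carcinoma WT 1 overlapped with *Lats2*-CKO, and without WT 2 the value was -1.24. *Adam17*, in contrast, was higher without overlap, at 121 to 132 CPM in WT-PyMT and 134 to 158 in *Lats2*-CKO, or 126 ± 5.74 (SD, n = 3) against 141 ± 11.3 (n = 4).

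The TIMPs did not share a direction. *Timp3* was at 129, 207 and 244 CPM in WT-PyMT and 171, 85.7, 691 and 440 in *Lats2*-CKO 1, 7, 16 and 8, so that *Lats2*-CKO 16 and 8 stood above and *Lats2*-CKO 7 below all WT-PyMT values (log2 fold change 0.84, standard error 0.68, adjusted p = 0.766 in edgeR). Without *Lats2*-CKO 16 the value was 0.27, and with histology as a covariate -0.029. *Timp2* was at 168 to 242 CPM in WT-PyMT and at 217, 217 and 217 in *Lats2*-CKO 7, 16 and 8 beside the 484 above (log2 fold change 0.48, standard error 0.34, adjusted p = 0.746 in edgeR, and 0.10 without that library). *Timp1* was at 2.20 to 8.63 and 7.26 to 12.6 CPM. *Timp4*, known from adipose tissue, stood at 3.40 and 7.87 CPM in the adenomas WT 14 and WT 2, at 0.103 in the carcinoma WT 1 and at 0.0311, 0.692, 0.113 and 0.501 in *Lats2*-CKO 1, 7, 16 and 8. WT 1 lay among the *Lats2*-CKO values, and the log2 fold change was -3.50 (standard error 1.37, adjusted p = 0.688 in edgeR), -2.39 without WT 2 and -1.14 with histology as a covariate. Summed adipocyte markers were 5340 and 6477 CPM in WT 14 and WT 2, 140 in WT 1 and 23.9 to 357 in *Lats2*-CKO (10 of 10 detected in each), and their part was not tested.

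The second comparison asked the same of *Lats1*-CKO PyMT tumors. Here the collagenase *Mmp13*, the stromelysin *Mmp10* the proteoglycanases *Adamts4* and *Adamts15* and the secreted protease *Adamts16* were higher in *Lats1*-CKO and passed the threshold in DESeq2, which called 5 of the 58 members it tested beside 3.41% of all genes. In edgeR 0 of 61 were called, beside 0.0225% of all genes. At an unadjusted p under 0.05 in edgeR, 9 members were higher (4.76% of all genes) and 4 lower (6.58%). Values did not overlap for 6 members that were higher (4.88%) and 3 that were lower (6.47%). The median log2 fold change was 0.14 over the members and -0.00 over all genes, with 14 of 19 ADAMTSs, 12 of 19 MMPs, 3 of 4 TIMPs and 9 of 19 ADAMs positive. The bound for *Adam6b*, with no count in *Lats1*-CKO, left the members' median at 0.14. With each library left out in turn, an alternative chosen after seeing the data, DESeq2 called 1 (without WT 17) or 2 (without WT 22) to 5 members. The share of all genes called in these refits was not counted, so these counts have no background beside them. *Adamts16* was among the called members each time, at an adjusted p of 6.48e-05 to 0.0232 in DESeq2. The other 4 were each lost at least once: *Adamts15* without WT 17 or WT 22 (0.101 and 0.0695), *Mmp13* without the same (0.157 and 0.176), *Mmp10* without WT 17, WT 22 or *Lats1*-CKO 21 (0.0700, 0.0547 and 0.126), and *Adamts4* without WT 17, 20 or 22 or *Lats1*-CKO 27 or 21 (0.0662 to 0.169). Other members passed in DESeq2 in 1 such fit each: *Adamts8* without WT 22, *Timp4* without *Lats1*-CKO 27, *Mmp15* without *Lats1*-CKO 18, and *Timp2* and *Mmp16* without *Lats1*-CKO 21. DESeq2 gave no adjusted p for *Mmp13* without *Lats1*-CKO 18 or for *Mmp10* without *Lats1*-CKO 14.

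**Figure D3:**
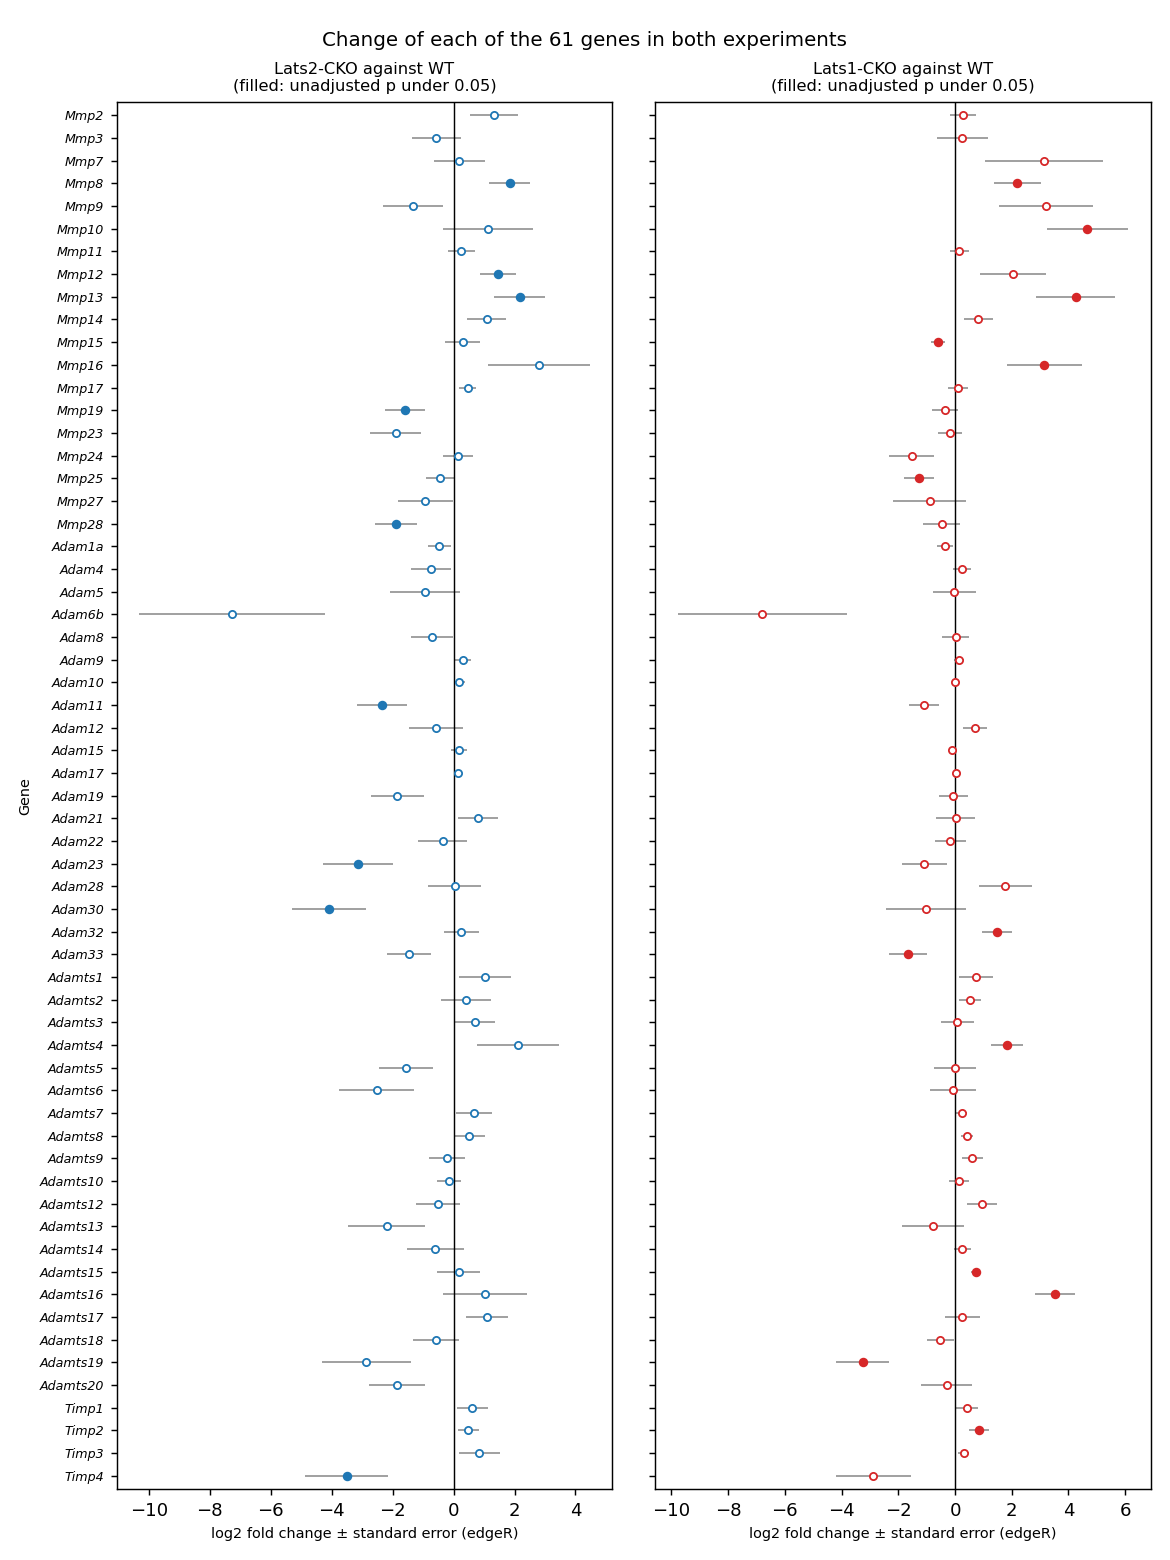
log2 fold change with its standard error (edgeR) of each of the 61 genes in *Lats2*-CKO (left) and *Lats1*-CKO (right) against their own WT-PyMT tumors, filled where the unadjusted p was under 0.05. *Mmp13* and *Mmp8* are filled above 0 in both panels, and the fitted value of *Adam6b*, which had no count in either CKO group, is no bound.

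*Adamts16*, a little-studied secreted protease, was the member called by DESeq2 whichever library was left out. It stood at 0.159, 0.127 and 0.204 CPM in WT 17, 20 and 22 and at 1.211, 0.659, 3.61 and 2.22 in *Lats1*-CKO 27, 18, 14 and 21, from 12 counts in WT-PyMT and 157 in *Lats1*-CKO. The groups did not overlap, with a gap of over 3 times between the nearest values. The log2 fold change was 3.52 (standard error 0.70, adjusted p = 0.195 in edgeR and 0.00106 in DESeq2). *Adamts15*, which cuts versican and aggrecan, was at 21.3, 27.1 and 17.3 CPM and at 32.4, 40.0, 33.6 and 39.9, again without overlap, as 21.9 ± 4.94 (SD, n = 3) against 36.5 ± 4.04 (n = 4) and its log2 fold change was 0.73 (standard error 0.18, adjusted p = 0.239 in edgeR and 0.00913 in DESeq2). *Adamts4* (aggrecanase) was at 5.67, 3.60 and 4.28 CPM and at 24.6, 5.63, 9.23 and 24.9, where *Lats1*-CKO 18 fell within the WT-PyMT range. Its log2 fold change was 1.83 (standard error 0.57, adjusted p = 0.349 in edgeR and 0.0295 in DESeq2). *Adamts1* and *Adamts5*, from the same group of proteoglycanases, overlapped between the groups, at 10.1 to 17.3 against 8.01 to 46.8 CPM and 7.15 to 17.3 against 3.35 to 22.6 CPM.

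**Figure D4:**
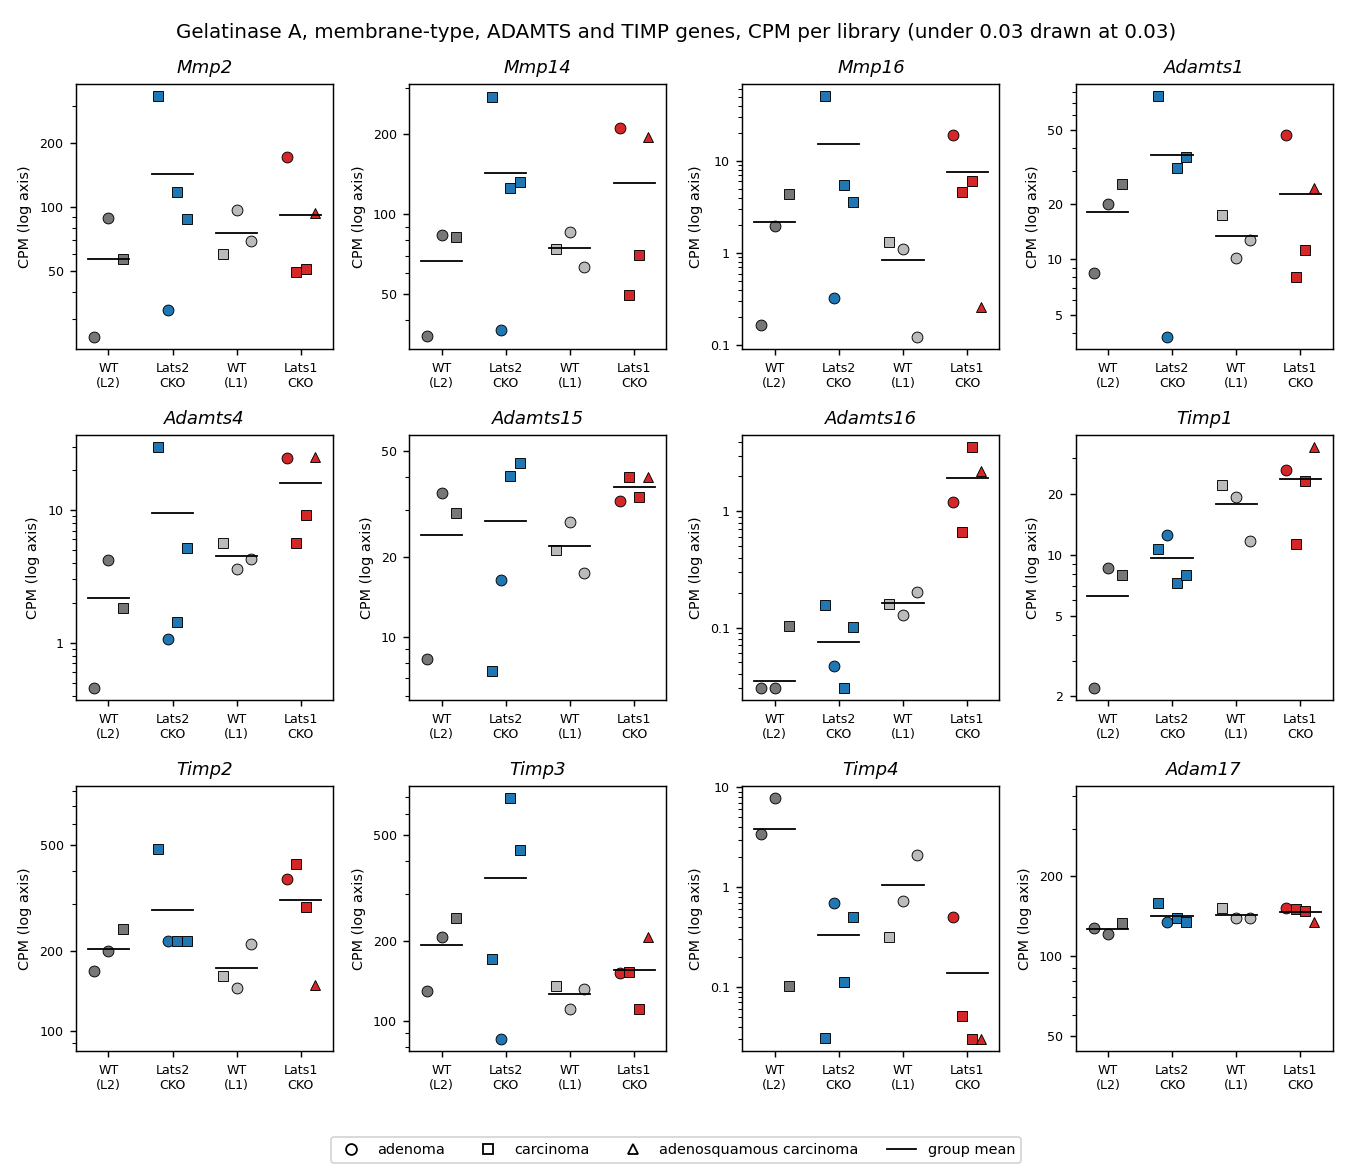
CPM (log axis) of 12 members in each library by group, with circles for adenomas, squares for carcinomas, a triangle for the adenosquamous carcinoma and a line at the group mean. *Adamts15* and *Adamts16* separate *Lats1*-CKO from its WT-PyMT tumors, 1 *Lats2*-CKO library stands above the rest in *Mmp2*, *Mmp14*, *Mmp16* and *Timp2*, and *Adam17* stays between 121 and 158 CPM.

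Of the 7 genes of the chromosome 9 cluster, 5 were highest of all 14 libraries in the adenosquamous carcinoma *Lats1*-CKO 21. *Mmp3* was highest there only within the *Lats1* experiment, by a small step, while WT 2 of the separately scaled *Lats2* experiment had 26.6 CPM. *Mmp13* was at 1.269, 4.11 and 0.611 CPM in WT 17, 20 and 22 and at 14.2, 3.70, 13.4 and 121 in *Lats1*-CKO 27, 18, 14 and 21. *Lats1*-CKO 18 fell below WT 20, and the other 3 *Lats1*-CKO values lay above all WT-PyMT values. The log2 fold change was 4.25 (standard error 1.39, adjusted p = 0.375 in edgeR and 0.0239 in DESeq2), and 2.39 without *Lats1*-CKO 21 (DESeq2 adjusted p = 0.0344). *Mmp10* was at 0.0793, 0.169 and 0.0815 CPM and at 0.404, 0.456, 1.22 and 9.65, with no overlap, from 8 counts in WT-PyMT and 230 in *Lats1*-CKO. It had a log2 fold change of 4.67 with a standard error of 1.43 (adjusted p = 0.340 in edgeR and 0.00860 in DESeq2), and of 2.6 without *Lats1*-CKO 21.

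*Mmp12* was at 14.7, 10.8 and 5.62 CPM in WT-PyMT and at 21.6, 6.39, 5.95 and 136, and *Mmp7*, the epithelial matrilysin, at 0.119, 0.127 and 0.652 and at 0, 0, 0.750 and 10.01. Away from the cluster, the gelatinase *Mmp9*, a protease abundant in neutrophils, was at 0.555, 0.677 and 2.36 and at 1.72, 0.659, 1.03 and 41.0 CPM. In these 3 genes only *Lats1*-CKO 21 stood well apart, and the other *Lats1*-CKO values lay around those of WT-PyMT. The log2 fold changes of 2.04 (standard error 1.17) in *Mmp12*, 3.14 (2.08) in *Mmp7* and 3.20 (1.66) in *Mmp9*, at adjusted p of 0.538, 0.586 and 0.503 in edgeR, were 0.13, -0.23 and -0.08 without that library. *Mmp8* was at 1.29 CPM there and at 0.234 to 0.505 in the other *Lats1*-CKO against 0.0407 to 0.198 in WT-PyMT, without overlap, on 46 and 9 counts. The cluster was not uniform in this tumor, where *Mmp3* was at 22.1 CPM, close to the 20.6 of *Lats1*-CKO 27 and the 18.5 of WT 20, and *Mmp27* at 0.155 against 0.204 to 0.677 in WT-PyMT.

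**Figure D5:**
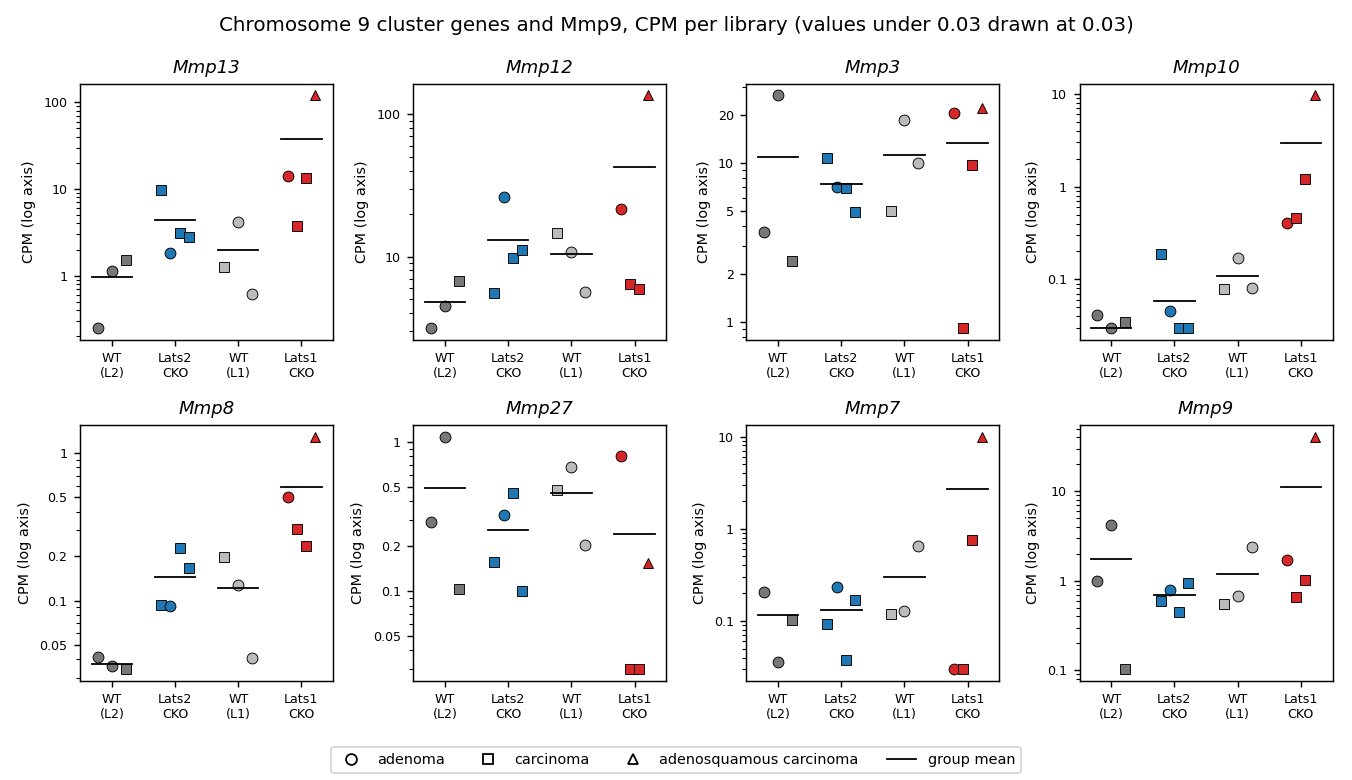
CPM (log axis) of the 7 chromosome 9 cluster genes and *Mmp9* in each library by group, with circles for adenomas, squares for carcinomas, a triangle for the adenosquamous carcinoma and a line at the group mean. The triangle is the highest point for *Mmp13* (121), *Mmp12* (136), *Mmp10* (9.65), *Mmp8* (1.29), *Mmp7* (10.01) and *Mmp9* (41.0), not for *Mmp3* or *Mmp27*.

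Of the marker lists, some stood apart in *Lats1*-CKO 21 and others did not. The mean of the 8 neutrophil markers, all detected, was 2.34 log2 CPM there, 1.07 to 1.96 in the other *Lats1*-CKO and 0.22 to 1.23 in WT-PyMT, whereas their sum, with the milk protein gene *Ltf* in it, was 1006 CPM there, 396 to 1613 and 993 to 1299. The macrophage mean was 5.69 against 5.04 to 5.55 and 5.39 to 5.82, within the range of the other libraries. The squamous mean was 4.46 against at most 0.83 elsewhere. Summed skeletal muscle markers (8 of 8 detected) were 990 CPM there and 4.31 to 326 in the other 6 libraries of the experiment, and summed myoepithelial markers 1651 against 340 to 1013 CPM. Adenosquamous histology, squamous cells and *Lats1* deletion cannot be told apart in 1 tumor, and the part of neutrophils, muscle and myoepithelium was not tested.

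The other *Lats1*-CKO tumor with high MMPs was the adenoma *Lats1*-CKO 27. *Mmp14* was at 74.4, 85.9 and 63.6 CPM in WT-PyMT and at 211, 49.7, 70.3 and 196 in *Lats1*-CKO 27, 18, 14 and 21. *Mmp2* was at 60.1, 97.4 and 69.7 and at 173, 49.8, 51.4 and 93.6. So the carcinomas *Lats1*-CKO 18 and 14 lay within or below the WT-PyMT range in both genes. The log2 fold changes of 0.82 (standard error 0.51) and 0.28 (0.45) did not pass, at adjusted p of 0.568 and 0.849 in edgeR, and without *Lats1*-CKO 27 they were 0.50 and -0.22. *Mmp16*, chosen after its values were seen, was at 19.1, 4.61 and 6.09 CPM in *Lats1*-CKO 27, 18 and 14 but at 0.258 in *Lats1*-CKO 21, against 0.122 to 1.31 in WT-PyMT. Summed fibroblast markers were 3686 CPM in *Lats1*-CKO 27, 3994 in *Lats1*-CKO 21 and 1596 to 3385 in the other 5 libraries. With the fibroblast mean as a covariate the log2 fold changes were 0.90 for *Mmp14* and 0.44 for *Mmp2*.

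The sheddase genes were close in both groups, while *Timp2* was mostly higher and *Timp4* lower without passing. The mean level of *Adam10* was 247 ± 8.42 CPM (SD, n = 3) without and 249 ± 17.7 (n = 4) with *Lats1* deletion, and *Adam17* at 143 ± 6.73 and 145 ± 7.73. *Adam12* was at 5.59 to 8.73 and 5.17 to 18.1 CPM, and *Adam8*, of myeloid cells, at 9.40 to 15.3 and 6.23 to 22.9. *Mmp11*, the stromelysin of tumor stroma, was at 6.39 to 10.5 and 5.48 to 11.6 CPM. *Mmp15*, named after its values were seen, was at 230, 207 and 211 CPM in WT-PyMT and at 155, 200, 127 and 88.1 in *Lats1*-CKO, the lowest in the adenosquamous carcinoma, with no overlap and an adjusted p of 0.430 in edgeR. *Timp2* was at 160, 144 and 212 CPM and at 372, 425, 292 and 148, so that *Lats1*-CKO 21 alone lay within the WT-PyMT range (log2 fold change 0.85, standard error 0.34, adjusted p = 0.430 in edgeR and 0.171 in DESeq2), and it passed in DESeq2 without that library. *Timp1* was at 11.6 to 22.2 and 11.3 to 34.1 CPM and *Timp3* at 111 to 135 and 111 to 207. *Timp4* was at 0.317 to 2.12 CPM in WT-PyMT and 0 to 0.505 in *Lats1*-CKO, with *Lats1*-CKO 27 highest and within the WT-PyMT range (log2 fold change -2.88, standard error 1.32, adjusted p = 0.464 in edgeR and 0.421 in DESeq2). Without *Lats1*-CKO 27 it passed in DESeq2 (adjusted p = 0.0214), where *Lats1*-CKO 18, 14 and 21 held 1, 0 and 0 counts, and without WT 22 the DESeq2 value was -1.89.

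Whether the deletions differed in their change was tested in 1 fit of the 14 libraries, subtracting the change with *Lats2* deletion from that with *Lats1* deletion. No member passed: edgeR called 0 of 61 beside 0.0174% of all genes, and DESeq2 0 of 58 beside 0.0968%. At an unadjusted p under 0.05 in edgeR 1 member was higher, *Mmp9* (1.97% of all genes were), and 0 lower (1.2%). For *Mmp9* the difference was 4.58 (standard error 2.0, adjusted p = 0.913 in edgeR), 1.28 without *Lats1*-CKO 21 and 2.91 without WT 2. The *Adam19* difference of 1.84 (1.09) and the *Adamts6* difference of 2.49 (1.59), at adjusted p of 0.913 in edgeR, were -0.14 and -0.18 without WT 14. The differences of *Mmp23* (1.78, standard error 0.98), *Mmp19* (1.3, 0.85) and the matrix protease *Adamts12* (1.48, 0.95), at the same adjusted p in edgeR, were 0.48 for *Mmp23* without WT 14, and 0.70 and 0.40 for the other two without WT 2, while *Adamts12* was at 0.95 without *Lats1*-CKO 21. *Adamts16*, with 3 counts in the WT-PyMT and 9 in the *Lats2*-CKO libraries of the *Lats2* experiment, did not pass either (adjusted p = 0.913 in edgeR).

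Carcinomas and adenomas were compared over 13 libraries with genotype within experiment in the model. *Timp4* was the 1 member of 61 called by DESeq2 (0.649% of all 17100 genes it tested), and lower in carcinomas, while edgeR called 0 (0% of all genes). At an unadjusted p under 0.05 in edgeR 0 members were higher (1.6% of all genes) and 4 lower (2.94%), which were *Timp4*, *Adam33*, *Mmp28* and *Adamts19*. *Timp4* ran from 0.505 over a median of 1.42 to 7.87 CPM in the 6 adenomas and from 0 over 0.103 to 0.501 CPM in the 7 carcinomas. The nearest values, 0.505 in *Lats1*-CKO 27 and 0.501 in *Lats2*-CKO 8, were almost equal. They were scaled in different experiments, so whether the groups overlap depends on the scaling. The share of all genes without overlap was not counted here. The log2 fold change was -3.11 (standard error 0.89, adjusted p = 0.828 in edgeR and 0.0256 in DESeq2). With single libraries left out DESeq2 called 0 to 3 members (the share of all genes was not counted there). It called *Timp4* in 6 of these 13 fits and not without WT 14, WT 2, WT 1, *Lats2*-CKO 16, WT 22, *Lats1*-CKO 27 or *Lats1*-CKO 18 (adjusted p = 0.0511 to 0.658 in DESeq2). *Adam33* ran from 0.877 over 2.18 to 7.58 and from 0.404 over 0.659 to 2.18 CPM (-1.43 on the log2 scale with a standard error of 0.53, adjusted p = 0.828 in edgeR), and *Mmp28* from 0.508 over 0.995 to 3.61 and from 0.203 over 0.481 to 0.701 CPM. *Adamts7*, which cuts the cartilage matrix protein COMP, ran from 4.06 over 13.2 to 25.8 CPM in adenomas and from 17.8 over 20.7 to 26.8 CPM in carcinomas, with a value of 0.69 (standard error 0.33) on the log2 scale, 0.37 without WT 1 and 1.12 without *Lats1*-CKO 27. *Adamts5* was at -1.55 (0.77), or -0.86 without *Lats1*-CKO 27 and -0.98 without WT 1, and neither gene passed (adjusted p = 0.828 in edgeR for both). *Mmp3* had medians of 14.2 and 5.0 CPM and *Mmp9* of 1.36 and 0.591 CPM in adenomas and carcinomas, and a log2 fold change of -1.55 each (adjusted p = 0.828 in edgeR), with *Mmp9* at -0.89 without WT 1. Of the 19 MMPs, 6 had a positive and 13 a negative log2 fold change in carcinomas. All 10 adipocyte markers were lower in carcinomas at an unadjusted p under 0.05 (median log2 fold change -3.12), and their part in the *Timp4* values was not tested.

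Genes that act on these enzymes or resemble them were taken from 3 lists. None passed in edgeR in either genotype, whereas DESeq2 called 6 activators, inhibitors or regulators, 2 relatives and 1 AP-1 subunit in *Lats1*-CKO (3.41% of all genes) and 0 of each list in *Lats2*-CKO (0.817%). Of 24 activators, inhibitors and regulators, 7 were higher (4.76% of all genes) and 3 lower (6.58%) in *Lats1*-CKO at an unadjusted p under 0.05 in edgeR (median log2 fold change 0.25), and 0 of 23 were higher (1.2% of all genes) and 1 lower (5.91%) in *Lats2*-CKO (median 0.29). The genes called by DESeq2 included *Serpine2*, *Bsg* (the MMP inducer basigin) and *Rhbdf1* (iRhom1, which traffics ADAM17) as higher, and the ADAM10-binding tetraspanins *Tspan15* and *Tspan17* as lower in *Lats1*-CKO. The tetraspanins of the list did not share a direction. *Tspan33* (log2 fold change 0.64) and *Tspan5* (0.28) were higher, *Tspan14* (-0.35) was lower and *Tspan10* had counts in WT 22 only, none of them called by DESeq2.

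Of the related metalloproteinases and ADAMTS-like proteins, 2 of 12 were higher in *Lats1*-CKO at an unadjusted p under 0.05 in edgeR (4.76% of all genes, median of the list 0.87). In *Lats2*-CKO 1 of 13 was lower (5.91% of all genes, median of the list 0.71). *Adamtsl2*, which lacks a protease domain, was at 8.05, 8.81 and 8.63 CPM in WT-PyMT and at 19.9, 20.5, 22.1 and 20.2 in *Lats1*-CKO. The groups did not overlap and neither had much spread (1.28 ± 0.14 on the log2 scale, standard error, adjusted p = 1.18e-22 in DESeq2 and 0.0686 in edgeR). *Pappa*, a secreted protease that cuts IGF-binding proteins, was at 0.397, 0.0423 and 0.326 CPM and at 4.24, 1.37, 1.41 and 15.0, again without overlap and highest in the adenosquamous carcinoma (adjusted p = 0.00158 in DESeq2 and 0.294 in edgeR). Of the 9 AP-1 subunits, 3 were lower in *Lats1*-CKO at an unadjusted p under 0.05 in edgeR (6.58% of all genes, median of the list -0.57). In *Lats2*-CKO 1 was lower (5.91% of all genes, median of the list 0.04). *Jun* was at 96.6, 127 and 134 CPM in WT-PyMT and at 72.5, 77.4, 71.6 and 73.9 in *Lats1*-CKO, without overlap (adjusted p = 0.000167 in DESeq2 and 0.169 in edgeR). *Fosl2* was at 208 CPM in *Lats1*-CKO 21 and at 79.3 to 168 in the other 6 libraries of the experiment. The part of these subunits in the *Mmp13* and *Mmp10* values was not tested. The genes named from these lists were chosen after their values were seen.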

How the data were processed

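The deposited tables hold raw counts per gene, which the authors made from single-end 60-bp reads of polyadenylated RNA, aligned with STAR to mm10 and counted on RefSeq genes. STAR is named in the submitters' processing notes without a version. Counts were whole numbers, and the lowest sum of a gene over 7 libraries was 6 in both tables. Comparisons were made within an experiment in R 4.3.3 with edgeR 4.0.16 (TMM, quasi-likelihood test, Benjamini-Hochberg over all genes, threshold 0.05, two-sided) on the counts as deposited, and DESeq2 1.42.0, the tool of the study, was the alternative. The spread between tumors, and for genes under 1 CPM the number of counts too, sets the precision. log2 CPM has a prior count of 2. Exon lengths and positions are from GENCODE M21 (GRCm38), to which all 61 genes matched, and promoters from RefSeq GRCm38.p6. The fits were run on simulated counts with the same spread for all genes and changes only in better expressed genes. Many members here vary more or are lower, so that run does not tell how the fits perform on them. Other alternatives were other size factors, a filter on low counts, a robust fit, covariates, all 14 libraries in 1 fit and single libraries left out.

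Values were given for *Mmp2*, *Mmp3*, *Mmp7*, *Mmp9*, *Mmp11* to *Mmp14*, *Adam8*, *Adam10*, *Adam12*, *Adam17*, *Adamts1*, *Adamts5* and the TIMPs, for members called by either tool, for the 6 members with the smallest edgeR p and a mean of at least 1 CPM in each comparison, and for the 4 with the highest single library relative to the others. The members, gene lists and rules were chosen with earlier results of these data known. Of the listed genes, 1 was counted with its list, and its own values are not reported here.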

Additional observations from a re-analysis of the deposited data

Results flagged for a closer look

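Single libraries were compared with the rest of their group for 32 genes in the *Lats2*-CKO and *Lats1*-CKO groups of 4, that is 64 groups. If values were normally distributed, chance would mark about 1 in 20 groups of genes chosen without regard to their values. CPM need not be so distributed, and several of these genes were named for a high single library or a small p, so that rate does not hold for them. In *Lats1*-CKO 21, the adenosquamous carcinoma, *Mmp12* (136 CPM), *Mmp13* (121), *Mmp9* (41.0), *Mmp7* (10.01) and *Mmp10* (9.65) lay far above the other 3 tumors of the group. In the library labelled *Lats2*-CKO 1, whose *Lats2* level was within the WT-PyMT range, *Timp2* (484 CPM) and *Adamts4* (29.9) did so. *Mmp13* (9.67, with 3.14 in the next tumor) was marked there too, but only just. *Timp4* was at 0.505 CPM in the adenoma *Lats1*-CKO 27, above the 0 to 0.0507 of the other 3.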

How the results depend on the processing

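No member was called by edgeR in any comparison under any alternative run. With histology as a covariate, 1 member was higher and 1 lower in *Lats2*-CKO at an unadjusted p under 0.05 (in place of 3 and 6), 5 higher and 2 lower in *Lats1*-CKO (in place of 9 and 4), and *Timp3* in *Lats2*-CKO turned to -0.029. With the macrophage mean as a covariate 0 were higher and 2 lower in *Lats2*-CKO and 2 lower in *Lats1*-CKO, with the fibroblast mean 1 and 1 in *Lats2*-CKO, 0 higher in the difference of the deletions and 1 higher in carcinomas, and with all 14 libraries in 1 fit 1 and 10 in *Lats2*-CKO. DESeq2 called 5 members in *Lats1*-CKO and 1 in carcinomas, and at an unadjusted p 0 were higher in the difference, and 1 higher and 9 lower in carcinomas. In WT-PyMT libraries alone 1 was lower in carcinomas. The share of all genes was not counted for the unadjusted p in these refits, and the cause of the shifts was not tested.

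With single libraries left out, 1 to 6 members were higher (6 without *Lats2*-CKO 7) and 2 to 14 lower (14 without WT 1, 2 without WT 14) in *Lats2*-CKO, and 4 to 7 higher and 3 to 13 lower (13 without WT 1) did not overlap. In *Lats1*-CKO 5 to 10 were higher and 1 to 4 lower (1 without WT 22), and 6 to 10 and 3 to 7 did not overlap. A count without overlap can only stay or rise when a library is dropped, so its rise carries no information. In the difference 0 to 5 were higher (5 without WT 1) and 0 to 1 lower, and in carcinomas 0 to 2 higher and 2 to 12 lower (12 without *Lats2*-CKO 7). DESeq2 called 1 to 5 in *Lats1*-CKO and 0 to 3 in carcinomas. The shares of all genes with single libraries left out were not counted, so these ranges have no background beside them. Fold changes were followed through the edgeR refits for only part of the named genes in each comparison. Of these, the range of *Timp3* in *Lats2*-CKO crossed 0 in the refit with histology as a covariate. The other ranges that crossed 0 were those of *Mmp2* (-0.22 to 0.52), *Mmp7* (-0.23 to 4.39) and *Mmp9* (-0.078 to 4.16) in *Lats1*-CKO and of *Adam19* (-0.14 to 2.34) and *Adamts6* (-0.18 to 3.62) in the difference. In DESeq2 the carcinoma ranges of *Adamts4* (-0.53 to 1.08), *Mmp13* (-0.13 to 0.69) and *Mmp10* (-0.071 to 0.80), which were not called, crossed 0 too. For the genes followed, 149 of 150 refits in *Lats2*-CKO, 156 of 164 in *Lats1*-CKO, 106 of 108 in the difference and 113 of 114 in carcinomas kept direction and side of the threshold. No member passed in the main edgeR fits, so the side could change only where a refit passed. A change in size alone did not count. Genes under 1 CPM are limited by depth. No paired analysis was made. The study compared littermates, but the labels do not say which tumors came from the same litter, and the groups compared share fewer than 2 replicate numbers.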
